A study of Danio rerio with 10 samples.

Results

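The EAG-type potassium channel genes are the family named kcnh in zebrafish, and they were followed here in the testes of adult males that had met dioxin early in life. A list of 9 family members was looked up by exact symbol in the annotation of the array. A probe was found for 6 of them, kcnh1a, kcnh2a, kcnh5a, kcnh5b, kcnh6a and kcnh7, out of 19260 genes in all. The symbols kcnh1b, kcnh2b and kcnh3 matched no probe and were not analysed here. The 6 genes had 7 probes, because kcnh2a had a pair, and each gene was read from its brightest probe by the mean of the 10 arrays. The family was chosen by measured values, namely the TCDD minus DMSO differences of kcnh1a and kcnh7 on these arrays. Those differences are therefore given as a description, with no test, and so are the differences of the other members from the same comparison.

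Both groups were wild-type male zebrafish (Danio rerio) of the AB strain, sampled as adults at 1 year of age. The TCDD group of 5 males had been placed for 1 h in water with TCDD at 50 pg/ml, at 3 weeks and again at 7 weeks after fertilization, when the gonads differentiate and mature. TCDD (2,3,7,8-tetrachlorodibenzo-p-dioxin) is a persistent dioxin that activates the aryl hydrocarbon receptor. The DMSO group of 5 males was given the solvent in the same way. Whole testis RNA was hybridised to Affymetrix whole-transcript arrays, each testis sample on its own array, and the labels number the samples as biological replicates without saying whether any fish shared a tank or clutch. In whole tissue, fewer cells of a type and less RNA per cell cannot be told apart.

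EAG-type channels open when the membrane depolarises and let potassium leave the cell. Each channel is a tetramer whose subunits carry a PAS domain at the amino end and a domain resembling cyclic nucleotide-binding domains at the carboxyl end, although the channels are hardly gated by cyclic nucleotides. The family has an EAG, an ERG and an ELK branch. EAG channels, from KCNH1 and KCNH5 genes, are best known in the mammalian brain and are blocked by calcium-loaded calmodulin. ERG channels, from KCNH2, KCNH6 and KCNH7 genes, include the human channel that ends the cardiac action potential.

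All 7 measured germ cell markers and all 6 Sertoli cell markers lay above the median probe. So did all 5 liver markers and all 4 smooth muscle markers, so that this count does not single out testis. The medians of the arrays spanned 6.71 to 6.87 (log2). DMSO 1 correlated less with the remaining arrays than any other, at a mean of 0.918 against 0.952 to 0.961 for the rest, and its germ cell marker mean was 8.88 against 10.9 to 11.8 elsewhere. Intestine and pancreas markers averaged 11.8 in DMSO 1. They averaged 11.1 in TCDD 2 and 10.2 in TCDD 3, and the 7 arrays that remain spanned 7.47 to 8.96. Results that rest on DMSO 1 or TCDD 2 are given with and without them.

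All 6 channel genes with a probe lay above the median of all 75212 probes. Read from their brightest probes, at least 13933 of all 19260 genes did so too, and nothing is read from that count. kcnh6a was at the 93.1 percentile, kcnh1a at 83.1, kcnh7 at 74.6, kcnh5b at 65.2, kcnh2a at 56.8 and kcnh5a at 56.3. These percentiles describe how bright each probe was and do not rank the genes, because probes differ in their response. kcnh2a and kcnh5a came down to the 50.5 and 49.2 percentile in their dimmest arrays, near the median probe, where background can hide a difference.

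kcnh1a and kcnh7, whose differences led to the choice of the family, were higher on average in TCDD. The other 4 members had intervals of the difference that included 0. That of kcnh6a, -0.45 to 1.23, also held the differences of kcnh7 (0.74) and kcnh1a (1.21). Whether members differed from each other was not tested. Over all 6 members the median difference, TCDD minus DMSO, was 0.20 on the log2 scale, with 4 above 0 and 2 below, while the median of all 19260 genes was 0.018 and 54.6% of genes lay above 0. In limma's fit over all genes, 0 of the 6 members and 0% of all genes passed an adjusted p of 0.05. Without TCDD 2 the count over all genes was 1, and that gene was kcnh1a, so that nothing is read from it either. A looser rule, a 1.5-fold difference or more plus an unadjusted p below 0.05, was met by 2 members, kcnh1a and kcnh7, and by 0.592% of all genes. Since these values led to the choice of the family, nothing is read from that count. The plot of values by group shows the members side by side.

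**Figure D1:**
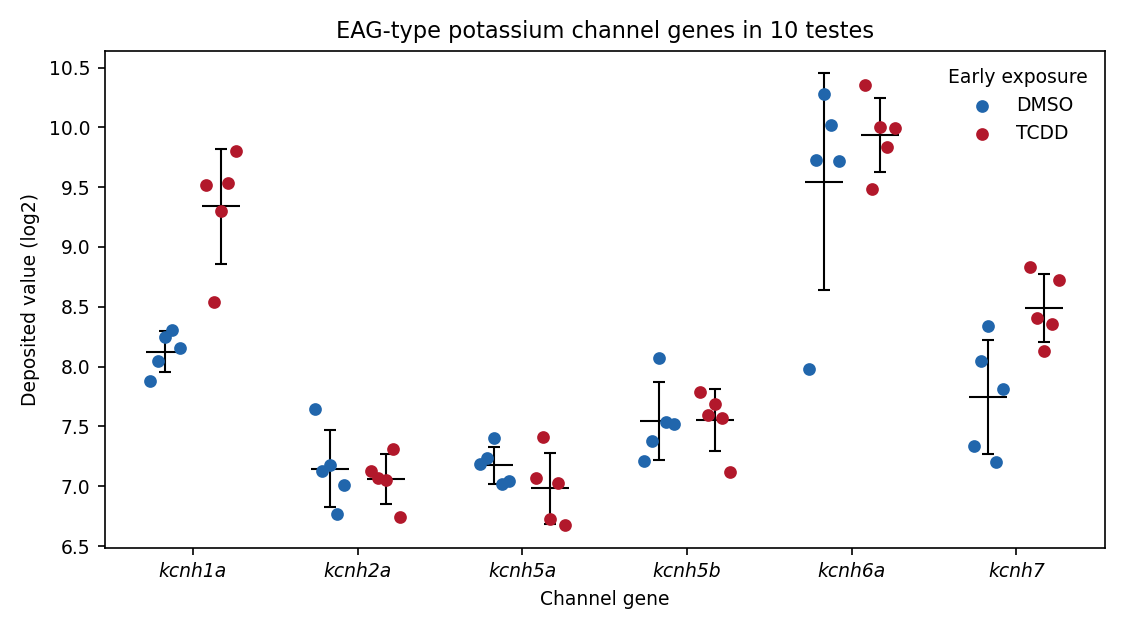
Deposited log2 values of the 6 channel genes (horizontal axis) in 10 testes, with 1 point per array, blue for DMSO and red for TCDD; black bars give the mean and the SD of 5 arrays. The kcnh1a groups are separate, the kcnh7 groups overlap through TCDD 3 and DMSO 3, and 1 DMSO array (DMSO 1, at 7.98) lies far below the others for kcnh6a.

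Of the EAG branch, kcnh1a had the widest separation. This gene is the zebrafish counterpart of human KCNH1, whose gain-of-function variants cause developmental syndromes with epilepsy. Its log2 values in TCDD 1 to 5 were 9.52, 8.54, 9.30, 9.53 and 9.80. In DMSO 1 to 5 they were 7.88, 8.05, 8.24, 8.30 and 8.16. Every TCDD array lay above every DMSO array, and TCDD 2 was the lowest of its group, 0.24 above the highest DMSO array. Groups that do not overlap were found for 0.493% of all genes, and for 0.0987% with TCDD the higher group.

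kcnh1a thus averaged 9.34 ± 0.48 after TCDD and 8.13 ± 0.17 after DMSO (SD, n = 5 each). The difference was 1.21 on the log2 scale (95% interval 0.74 to 1.69), or 2.32-fold (1.67 to 3.22). The spread was larger in TCDD, by a ratio of SDs of 2.86, and TCDD 2 deviated from its group mean by -0.80. Leaving out single arrays gave differences from 1.10 without TCDD 5 to 1.41 without TCDD 2.

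Markers of several cell types, inside and outside the testis, were higher on average in TCDD, as kcnh1a was, though not always in the same arrays. Markers of Leydig cells, which make androgens, were higher in TCDD in 8 of 8 measured genes, with list means of 9.27 to 9.94 in TCDD and 7.77 to 9.67 in DMSO. As with kcnh1a, TCDD 2 was the lowest TCDD array and DMSO 1 the lowest DMSO array on that list. The same held for the Sertoli cell and germ cell lists, so that this order is not particular to Leydig markers. Of the 8 Leydig markers nr5a1b, a nuclear receptor gene, had groups that did not overlap, as kcnh1a did, with 10.05 to 10.73 in TCDD and 8.70 to 9.93 in DMSO. Without DMSO 1 the median difference of the Leydig markers went from 0.70 to 0.34, and that of kcnh1a from 1.21 to 1.15. Markers of Sertoli cells, which support the germ cells, were higher in 6 of 6 genes, with means of 10.2 to 11.3 against 9.62 to 10.7. The median difference of the Sertoli markers was 0.54 (0.42 without DMSO 1). Of these 14 Leydig and Sertoli marker genes, 0 passed limma's adjusted p of 0.05, and 4 had an interval off 0, where all genes had 2.48%. Neuron markers did not follow kcnh1a, with 5 of 12 higher, a median difference of -0.078 and means of 7.24 to 7.45 against 7.23 to 7.66.

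Liver markers were higher in 5 of 5 measured genes, with a median difference of 1.48 (1.44 without DMSO 1) and 3 of 5 intervals off 0. Their means were 8.03 to 11.6 in TCDD and 7.28 to 8.54 in DMSO, and TCDD 5 was the highest array for them and for kcnh1a. Other arrays went the opposite way. DMSO 1 was the highest DMSO array for liver markers and the lowest for kcnh1a. TCDD 2, the lowest TCDD array for kcnh1a, came next after TCDD 5 for liver markers, at 9.72. Intestine and pancreas markers were higher in 8 of 8 genes, with a median difference of 0.62. It was 0.12 without TCDD 2, 1.49 without DMSO 1 and 0.95 without both. Germ cell markers were higher in 7 of 7 genes, with a median difference of 0.27 that became -0.054 without DMSO 1. Oocyte markers were higher in 5 of 5, with a median difference of 0.34 (0.24 without DMSO 1). Their means were raised in TCDD 3 and TCDD 4 only, at 7.79 and 8.07. In TCDD 1, TCDD 2 and TCDD 5 they were 7.04, 6.70 and 6.89, within the DMSO span of 6.68 to 7.19. The part of any of these cell types in the kcnh1a difference was not tested.

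**Figure D2:**
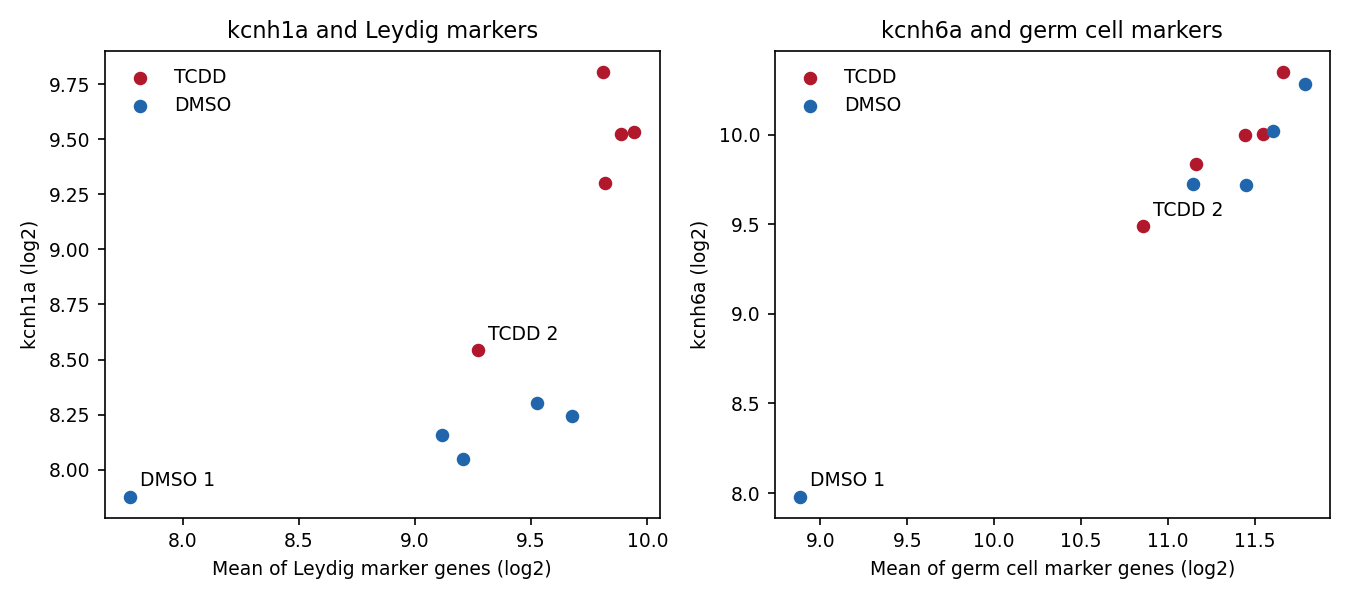
Left, kcnh1a against the mean of 8 Leydig cell marker genes, and right, kcnh6a against the mean of 7 germ cell marker genes, both axes in log2 units with 1 point per array. TCDD 2 is the lowest TCDD array in both panels and DMSO 1 the lowest array of all.

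kcnh5a and kcnh5b, the counterparts of KCNH5, had groups that overlapped. kcnh5a was at 7.07, 7.41, 6.73, 7.03 and 6.67 in TCDD 1 to 5 and at 7.18, 7.23, 7.40, 7.02 and 7.04 in DMSO 1 to 5. The TCDD arrays averaged 6.98 ± 0.30 and the DMSO arrays 7.18 ± 0.15 (SD, n = 5 each), which differ by -0.19 (95% interval -0.53 to 0.15). The groups overlapped, TCDD 2 being the highest array of all and TCDD 5 the lowest. The difference ran from -0.30 without TCDD 2 to -0.12 without TCDD 5.

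kcnh5b was at 7.79, 7.60, 7.69, 7.57 and 7.12 in TCDD 1 to 5 and at 7.21, 7.38, 8.08, 7.53 and 7.52 in DMSO 1 to 5. The means were 7.55 ± 0.26 and 7.54 ± 0.32 (SD, n = 5 each), with a difference of 0.0086 (95% interval -0.39 to 0.41). TCDD 5 had the lowest value of all arrays and DMSO 3 the highest, so that the groups overlapped. The interval allows a change of up to 1.33-fold up or to 0.763 of the DMSO level down. Its sign depended on single arrays, from -0.074 without DMSO 1 to 0.14 without DMSO 3.

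Of the ERG branch, kcnh7 had the largest difference, which was also used in choosing the family. Human KCNH7 encodes an ERG channel found mainly in the nervous system. The log2 values in TCDD 1 to 5 were 8.83, 8.41, 8.13, 8.36 and 8.72. In DMSO 1 to 5 they were 7.34, 8.05, 8.34, 7.20 and 7.82. All 5 TCDD arrays lay above the DMSO mean and 4 of 5 above every DMSO array, with TCDD 3 below DMSO 3 by 0.21.

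kcnh7 thus averaged 8.49 ± 0.29 after TCDD and 7.75 ± 0.48 after DMSO (SD, n = 5 each). The difference was 0.74 (95% interval 0.23 to 1.25), or 1.67-fold (1.17 to 2.38). It ran from 0.60 without DMSO 4 to 0.89 without DMSO 3, and was 0.66 without DMSO 1 and TCDD 2 together. The groups no longer overlapped when TCDD 3 or DMSO 3 was left out. In contrast to kcnh1a, the larger spread was in DMSO, with a ratio of SDs of 0.598.

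kcnh6a, which encodes the main repolarising ERG channel of the zebrafish heart, had values near each other in 9 of 10 testes. It was at 10.35, 9.49, 10.002, 9.84 and 9.997 in TCDD 1 to 5. In DMSO 1 to 5 it was at 7.98, 9.73, 10.28, 10.02 and 9.72. DMSO 1 was far below the other 9 arrays, which spanned 9.49 to 10.35 in both groups. Even in DMSO 1 the probe was at the 73.3 percentile of that array.

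kcnh6a averaged 9.94 ± 0.31 after TCDD and 9.55 ± 0.91 after DMSO (SD, n = 5 each). The difference of 0.39 (95% interval -0.45 to 1.23) became -0.0016 without DMSO 1 and 0.11 without DMSO 1 and TCDD 2 together. Its pooled SD within groups was 0.677, above that of 90.8% of genes, where the median gene had 0.286. Germ cell markers were low in the same arrays: the marker mean reached 8.88 in DMSO 1, 10.9 in TCDD 2 and 11.1 to 11.8 among the 8 remaining arrays, and DMSO 3 and TCDD 1, with means of 11.8 and 11.7, were also the highest for kcnh6a. The Leydig and Sertoli marker means were also lowest in DMSO 1, at 7.77 and 9.62. TCDD 2 was their lowest TCDD array, at 9.27 and 10.2, so that these low arrays are not particular to germ cell markers. Without DMSO 1 the median difference of the germ cell markers went from 0.27 to -0.054. The heart gene myl7 had the highest value in DMSO 2 (7.10) and was at 6.85 in DMSO 1 and 6.03 in TCDD 3. Its groups did not overlap, with TCDD lower by -0.48 (95% interval -0.81 to -0.15). Such a separation was found for 0.395% of all genes. The myl7 groups lay close, with the highest TCDD array at 6.47 and the lowest DMSO array at 6.49. Its probe was below the median probe, at the 44.7 percentile. The heart genes tnnt2a, myh6 and nppa had groups that overlapped and intervals that included 0. They differed by -0.15 (95% interval -0.48 to 0.18), -0.26 (95% interval -0.57 to 0.044) and 0.040 (95% interval -0.23 to 0.31). The part of germ cell, Leydig cell or Sertoli cell content in kcnh6a levels was not tested.

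kcnh2a is a zebrafish counterpart of KCNH2, the gene of the human cardiac ERG channel. It was at 7.13, 7.07, 7.05, 7.31 and 6.74 in TCDD 1 to 5 and at 7.65, 7.13, 7.18, 6.77 and 7.01 in DMSO 1 to 5. The groups overlapped almost fully, with the highest value in DMSO 1. The difference was -0.087 (95% interval -0.46 to 0.29) from means of 7.06 ± 0.21 and 7.15 ± 0.32 (SD, n = 5 each). The sign turned without DMSO 1, at 0.038. The dimmer second probe, at the 27.7 percentile, had means of 5.51 ± 0.28 and 5.70 ± 0.31 and a difference of -0.18 (95% interval -0.59 to 0.23).

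**Figure D3:**
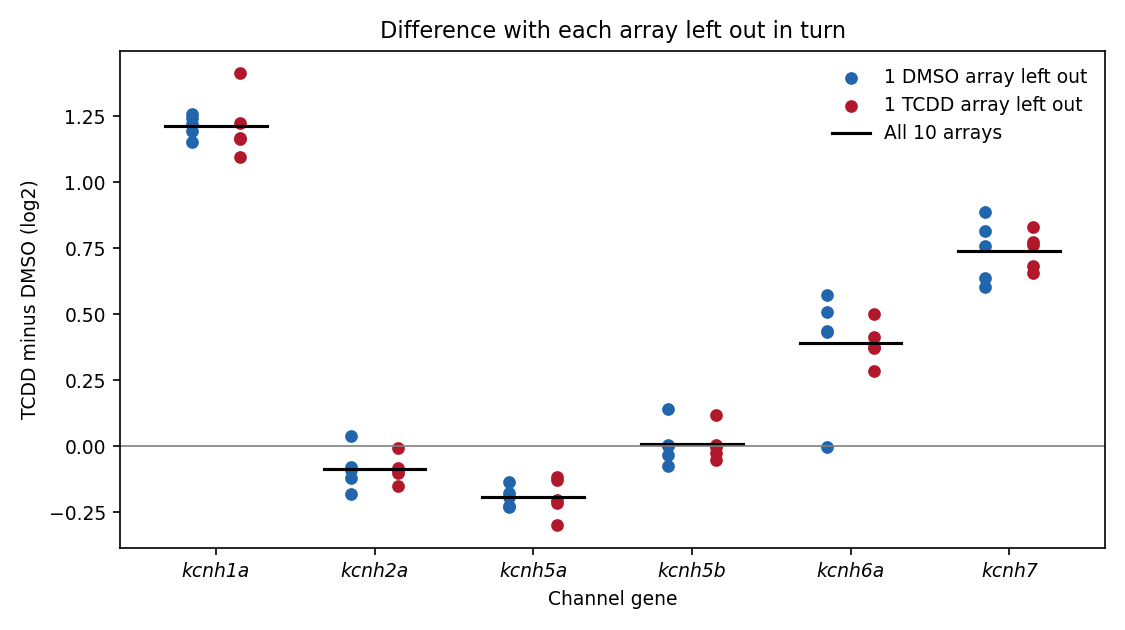
Difference TCDD minus DMSO (log2) for each channel gene when 1 array was left out, blue for a DMSO and red for a TCDD array, with the value over all 10 arrays as a black line. kcnh1a stays between 1.10 and 1.41 and kcnh7 between 0.60 and 0.89, while kcnh6a drops to -0.0016 without DMSO 1.

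kcnh1a and kcnh7 were compared within groups, after subtracting each group's mean, since both had been noticed for the same contrast. Pearson's r over 10 arrays was 0.25 (permutation p = 0.523) and Spearman's rho 0.21 (permutation p = 0.565), both two-sided with 100000 permutations. Without TCDD 2 and TCDD 5, the arrays farthest from the median of kcnh1a, r was 0.25 over 8 arrays. TCDD 1, TCDD 5, DMSO 3 and DMSO 5 were above their group means for both genes, and TCDD 2, TCDD 3 and DMSO 1 below for both. DMSO 2 was above for kcnh7 and below for kcnh1a, and TCDD 4 and DMSO 4 were the reverse. This was the 1 relation between members that was computed.

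The genes with the most similar pattern within groups differed between these channels. Among 13933 brighter genes with settled names, the highest r with kcnh1a over 10 arrays was that of mmp11a (0.97), a matrix metalloproteinase gene. It was followed by l3hypdh (0.97), nol10 (0.95), the angiomotin-like gene amotl2b (0.94) and the selenoprotein gene selenow1 (0.93). Without TCDD 2 these values fell to 0.75 to 0.89, the lowest for amotl2b. Of these genes amotl2b differed between the groups by 0.44 (95% interval 0.0094 to 0.88), and the intervals of the other 4 included 0.

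For kcnh7 the most similar genes were lancl2 (0.93), smx5 (0.93), the parvalbumin gene pvalb4 (0.91), ndufa5 of respiratory complex I (0.90) and the titin gene ttn.1 (0.89). With any single array left out these stayed at 0.84 or above. Of these genes ndufa5 differed between the groups by -0.27 (95% interval -0.52 to -0.025), whereas kcnh7 was higher in TCDD. The intervals of the others included 0. pvalb4 and ttn.1 are muscle genes, and their differences were -0.86 (95% interval -1.98 to 0.26) and -0.40 (95% interval -0.87 to 0.080). The striated and heart muscle markers had 9 of 10 genes lower in TCDD, with a median difference of -0.45. Intervals were off 0 for 5 of 10, where all genes had 2.48%. The list means were 6.59 to 6.82 in TCDD and 6.68 to 7.54 in DMSO, highest in DMSO 2 and DMSO 3. kcnh7 was also highest in those 2 arrays among the DMSO arrays. So were the neuron markers, with means of 7.46 in DMSO 2 and 7.66 in DMSO 3, and 5 of 12 of them were higher in TCDD. Among the TCDD arrays, TCDD 1 was the highest for kcnh7, for the muscle markers and for the neuron markers. It was also the highest of them for the germ cell markers, at 11.7. TCDD 5 went the opposite way. It came next after TCDD 1 for kcnh7, at 8.72, but was the lowest TCDD array for the neuron markers, at 7.24. Its muscle marker mean was 6.60, near the low end of the TCDD arrays. The part of muscle or of neurons in kcnh7 levels was not tested. These likenesses are the highest of many and describe the 10 arrays only.

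The other measured genes of the family and of its known partners all had intervals that included 0. kcnh6b, a second ERG gene, and kcnh8 of the ELK branch differed by -0.039 (95% interval -0.40 to 0.32) and -0.022 (95% interval -0.37 to 0.33). Of 20 listed partner genes, 10 were measured, 4 higher and 6 lower in TCDD, with a median difference of -0.035 against 0.018 for all genes, and 0 of 10 passed limma's adjusted p or had an interval off 0. calm3b, the 1 calmodulin gene measured, was at 0.13 (95% interval -0.52 to 0.77).

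Among the partners with the smallest p, kcne4, a single-pass potassium channel subunit gene, differed by 0.060 (95% interval -0.22 to 0.34). epn1a, an epsin gene of endocytosis, was at 0.073 (95% interval -0.36 to 0.51). rnf207a, whose human counterpart encodes a ubiquitin ligase that affects the cardiac ERG channel, was at -0.14 (95% interval -0.47 to 0.19). akap9, a kinase anchor gene, was at -0.17 (95% interval -0.68 to 0.33) and rnf207b at -0.071 (95% interval -0.36 to 0.21). cttn encodes cortactin, which binds the mammalian EAG channel, and its interval of -0.25 to 0.18 was the narrowest of the list. The probes of rnf207a and rnf207b were dim, with percentiles of 41.4 and 33.3.

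**Figure D4:**
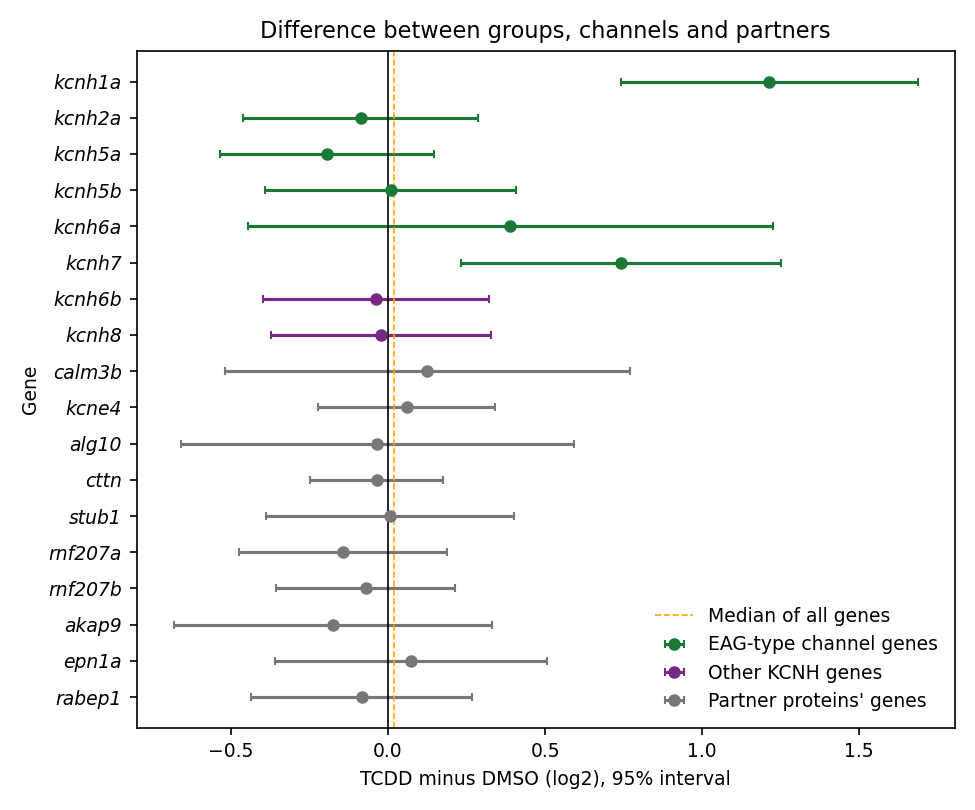
Difference TCDD minus DMSO (log2) with its 95% interval for the 6 EAG-type channel genes, 2 other kcnh genes and 10 partner genes, with 0 as a black line and the median of all genes (0.018) as a dashed line. The intervals of kcnh1a (0.74 to 1.69) and kcnh7 (0.23 to 1.25) lie above 0, and all others include it. The family was chosen by the differences of kcnh1a and kcnh7, so that nothing is read from this contrast.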

How the data were processed

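The deposited series table held 75212 probes and 10 columns, 1 per array, all assigned to a sample by its label. Its values were read as log2 expression values made by the authors before deposit, from their range of 1.25 to 14.6. How background was corrected, how arrays were normalized and which log base was used is not stated by the labels or the table. Of the probes, 20806 had 1 gene symbol in the platform annotation, and symbols were updated by Entrez identifier. The probe with the highest mean stood for a gene.

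TCDD was set against DMSO in limma 3.58.1 under R 4.3.3 (linear model on group, empirical Bayes variances, Benjamini-Hochberg adjustment over 19260 genes, threshold 0.05). The number of arrays limits the precision, and the median standard error was 0.177. The fit was tested on simulated data for TCDD against DMSO, with 19260 genes, 200 of them changed, and 5 arrays per group. It recovered 59.1% of 2-fold and 89.9% of 4-fold changes, with 5.63% of calls false. These shares hold for that setting, and 0 calls in the measured data do not show that 2-fold changes were absent.

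The members and lists were chosen with earlier results of these data known. The text names all members with a probe, up to 3 partner genes with the smallest p in each direction, and for kcnh1a and kcnh7 the 5 genes above the median probe with the highest Pearson r within groups, without provisional names. cttn, kcnh6b, kcnh8, myl7, tnnt2a, myh6 and nppa were named for their role. Alternatives were quantile normalization, centring on the array median, array weights, robust variances with a trend, the replicate block, dropping dim probes, averaging or exchanging the probes of a gene, and each array left out. Leaving out DMSO 1 and TCDD 2 together was added after seeing the data.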

Additional observations from a re-analysis of the deposited data

Results flagged for a closer look

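kcnh6a in DMSO 1, at 7.98, was the 1 value among the 7 channel probes that lay far from its group, with a gap to the next DMSO array of 0.756 of the group's range, above the limit of 0.71 for 5 samples. Chance alone gives such a value in about 1 of 20 groups, and 14 groups were examined. The same array had the lowest germ cell marker mean, 8.88.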

How the results depend on the processing

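Of 109 recomputed differences of the members, 23 equal the reported value because the alternative cannot move it (the replicate block, the variance model, the filter on dim probes, and the mean of probes for genes with 1 probe). Of the other 86, 75 had the same sign. The 11 that turned were 7 of kcnh5b, 3 of kcnh2a (array weights, without DMSO 1, and without DMSO 1 and TCDD 2 together) and 1 of kcnh6a (without DMSO 1). Over all arrays 478 genes (2.48%) had a limma unadjusted p under 0.05, a smaller share than chance alone gives at that threshold. Genes past the adjusted threshold numbered 0 over all arrays and 0 to 1 when single arrays were left out. The members among them were also 0 to 1, the 1 being kcnh1a without TCDD 2. Without DMSO 1 and TCDD 2 together both counts were 1. Since the family was chosen by kcnh1a, these calls lend it no support. The 114 genes past the unadjusted threshold and 1.5-fold became 351 with array weights, 364 without DMSO 1 and TCDD 2 together, and 64 (without DMSO 2) to 361 (without DMSO 1) with single arrays left out, among them 195 without TCDD 2 and 179 without DMSO 3. Their split of 63 higher and 51 lower became 66 and 29 with quantile normalization, 81 and 34 with median centring, 252 and 99 with array weights, and 272 and 89 without DMSO 1. It turned to 70 higher and 109 lower without DMSO 3, to 68 higher and 86 lower without DMSO 4, and to 52 higher and 55 lower without TCDD 5. The 95 genes whose groups did not overlap became 132 to 483 with single arrays left out and 685 without both arrays, where fewer arrays make separation easier. The cause of the other changes was not tested. The relation of kcnh1a and kcnh7 ran from 0.15 to 0.43 with single arrays left out. Same-numbered arrays were not shown to be pairs, since their deviations correlated at -0.402 to 0.153, and with the replicate block 0 genes passed, the second count was 143 and the interval of kcnh7 widened to 0.12 to 1.36, while the block cannot move a mean difference.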
